A study of Homo sapiens with 204 samples.

Results

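The early pre-60S knockdowns are 12 siRNA transfections of A549 cells, each against 1 protein of the large (60S) ribosomal subunit, among them RPL3, RPL6, RPL7, RPL7A, RPL13, RPL13A, RPL14, RPL18, RPL32, RPL35A and RPL36. The rule takes proteins known to join the 60S precursor early and to lie largely on the solvent side of the subunit, by target name. No measured value enters it, but the members were chosen with earlier results of these data known. They make up 24 of the 204 libraries (12 per assay) of a study that lowered 75 ribosomal proteins. A549 is an established line from a human lung adenocarcinoma. All cells received siRNA at 40 nM for 24 h with Lipofectamine RNAiMAX and were treated with cycloheximide before lysis, and controls carried a non-targeting siRNA and the same reagents. From the same lysate, an aliquot went to RNA-seq for the amount of each mRNA and an aliquot to Ribo-seq, which counts the mRNA fragments that ribosomes protect from nuclease (footprints). The 12 knockdowns were compared as 1 group with 28 of the 36 libraries of other 60S targets and with all 11 controls. Every one of the 12 targets has 1 library per assay, so none has a replicate of its own, and the labels do not say which libraries came from separate cultures. The p-values below therefore measure the spread between 12 different targets and between 11 controls, which may be partly technical.

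In the nucleolus, pre-60S particles form step by step on ribosomal RNA, and the proteins of the solvent-side shell join before those of the central protuberance, the peptide exit and the stalk. When 60S assembly stalls, RPL5, RPL11 and the 5S ribosomal RNA that are not built into ribosomes bind MDM2, the ubiquitin ligase that keeps p53 low, and p53 then induces genes such as CDKN1A, which stops the cell cycle. The mRNAs of ribosomal proteins and elongation factors begin with a C and a run of pyrimidines (the 5′ terminal oligopyrimidine or TOP motif), through which mTOR and LARP1 adjust their translation.

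Counts per library are total reads assigned to genes. The 12 knockdowns held 19.5 to 33.1 M counts (mega) in RNA-seq and 17 to 49.8 M counts in Ribo-seq. All 12 carry titles without a repeat number, as do 5 controls (19.1 to 23.3 M and 23.4 to 42.6 M counts), whereas 6 controls carry numbered titles (30.7 to 42.5 M and 15.1 to 41.9 M counts). The title set was a term in every fit against control, so fold changes rest on the 5 unnumbered controls and the other 6 add to the estimate of the spread. In the shallowest knockdown library a count of 0 allows an mRNA level of up to 0.154 CPM (counts scaled to library size) and a footprint level of up to 0.176 CPM. These floors cover counting error only. Numbered control NC20_2 stood farthest apart in RNA-seq. Its log2 ratios to the 5 unnumbered controls had an SD of 1.17 over genes, against 0.139 to 0.274 among those 5, which form the reference. NC20_1 (0.669), NC11_1 (0.44) and NC11_2 (0.423) also reached the range of the 12 knockdowns (0.365 to 0.584), unlike NC21_1 (0.222) and NC21_2 (0.233). In footprints NC11_1 (0.577), NC11_2 (0.579), NC20_1 (0.509) and NC20_2 (0.449) lay within the range of the knockdowns (0.406 to 0.74). The summed mRNA level of 13 lung epithelial and A549 markers was 7710 to 11200 CPM in the knockdowns and 6280 to 12500 CPM in the controls. Their summed footprints were 20400 to 25900 CPM in the knockdowns and 15900 to 19100 CPM in the controls, without overlap. Of 10 of these markers tested in mRNA 4 rose (40%, beside 9.26% of all genes), and 4 of 9 rose in footprints (beside 9.55%). Blood cell markers summed to 0.64 to 2.68 CPM in the knockdowns and 0.697 to 4.45 CPM in the controls over 8 genes, 2 of which, NKG7 among them, were at 0 throughout. Fibroblast markers summed to 49.2 to 89.6 CPM in the knockdowns and 21 to 38 CPM in the controls over 9 genes, with COL1A2 at 0 throughout and 6 of 9 at a median below 1 CPM. ACTA2, smooth muscle actin, was the only fibroblast marker that passed the test. In bulk samples, fewer cells of a kind and less RNA per cell cannot be told apart.

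Each siRNA lowered its own target. The targeted mRNA stood at 1.91% (RPL7) to 15.7% (RPL14) of the mean of the 5 unnumbered controls, with a median of 3.77%, and in each of the 12 libraries it was lower than in any control. RPL3, a core protein beside the peptidyl transferase centre, had 24.3 mRNA CPM in its own knockdown, against 579, 630 and 709 CPM as the lowest, median and highest of the other 11 knockdowns and 803, 892 and 1305 CPM in the controls. RPL13A had 111 mRNA CPM in its own knockdown, against 1716 to 4277 CPM in the controls. RPL14 was the least depleted, with 31.3 CPM in its own knockdown, against 191 to 255 CPM in the controls. Footprints on the targeted gene had a median of 4.76% of the controls, and 11 of the 12 libraries were lower than any control. The exception was RPL7, whose footprint counts were 0 in its own knockdown and 0 to 47 in the controls, too few to read.

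**Figure D1:**
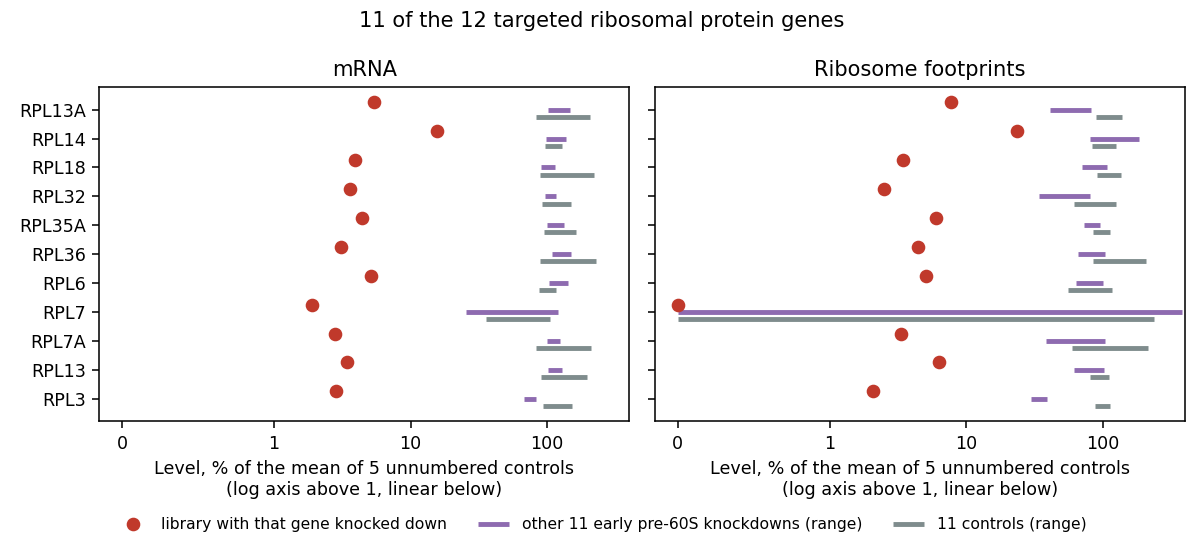
Level of 11 of the 12 targeted genes in percent of the mean of the 5 unnumbered controls (log axis above 1, linear below), with mRNA on the left and footprints on the right. Points are the library in which that gene was knocked down, upper bars the range of the other 11 early pre-60S knockdowns and lower bars the range of the 11 controls; mRNA points lie between 1.91% and 15.7%.

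At the median of the other 11 knockdowns, the mRNA of most targets was above control, but single libraries and RPL3 differed. RPL3 mRNA lay below all controls in each of the other 11. For RPL7 the lowest of the other 11 had 201 mRNA CPM, against 281.5 to 824 CPM in the controls, while their median was 841 CPM. The median level in the other 11 knockdowns was above 100% of the control mean for 11 of the 12 genes. It ran from 73.3% for RPL3 to 124% for RPL13A. Their footprints were lower than this, with a median of 80.8% over the 12 genes and values above 100% for 1 of them. RPL3 had the lowest footprint level outside its own knockdown, at 35.1% of control. Its footprints were 180, 213 and 236 CPM (lowest, median, highest) in the other 11 knockdowns, against 532, 596 and 686 CPM in the controls, so these groups did not overlap. In the fit over all 12 knockdowns, RPL3 footprints fell by 1.62 ± 0.27 on the log2 scale (SE; edgeR adjusted p = 6.545e-05), a value that includes its own knockdown, whereas its mRNA did not pass (-0.56 ± 0.33, adjusted p = 0.2537). Without its own knockdown its mRNA was lower and passed (-0.44, adjusted p = 0.001977), as it did without the title-set term (-0.67, 0.04167).

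Against control, 1350 of 14585 genes tested were higher in mRNA in the early pre-60S knockdowns (9.26%) and 1632 were lower (11.2%). Footprints were higher for 1148 of 12024 genes (9.55%) and lower for 1173 (9.76%). The tests are edgeR quasi-likelihood tests with Benjamini-Hochberg adjustment and a threshold of 0.05. Without the title-set term the mRNA counts were 2633 higher and 3238 lower, and the footprint counts 2047 higher and 2087 lower. All 12 knockdowns lay above all 11 controls for 2.26% of genes in mRNA and below them for 3.57%. The same shares for footprints were 1.8% and 2.81%.

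p53 target genes were raised almost throughout. Of 35 measured in mRNA, 32 rose (91.4%, beside 9.26% of all genes), with a median log2 fold change of 1.40 beside 0.00 over all genes. For 24 of the 35 all 12 knockdowns lay above all 11 controls, as for 2.26% of all genes. In footprints 34 of 34 rose (beside 9.55% of all genes), with a median of 1.44 beside 0.02 over all genes. The 3 mRNAs that did not pass were BAK1 (0.12), CCNG1 (0.67) and TNFRSF10C (0.30). The list was compiled from known p53 targets with earlier results of these data in view.

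CDKN1A, the cyclin-dependent kinase inhibitor p21, had 495, 667 and 1320 mRNA CPM (lowest, median, highest) in the knockdowns, against 115, 170 and 247 CPM in the controls. The groups did not overlap, and the log2 fold change was 2.36 ± 0.22 (SE; edgeR adjusted p = 3.698e-08), with 2.38 ± 0.24 in footprints (4.86e-08). MDM2, the ligase that marks p53 for degradation and itself a p53 target, had 886, 1060 and 1260 mRNA CPM in the knockdowns, against 53.6, 239 and 266 CPM in the controls. MDM2 rose by 2.17 ± 0.24 in mRNA (adjusted p = 3.515e-07) and by 2.88 ± 0.21 in footprints (5.582e-11). BTG2, an antiproliferative factor that recruits deadenylases, had the largest rise among the genes taken by the naming rule, with 67.3, 140 and 243 mRNA CPM in the knockdowns, against 8.43, 14.8 and 19.9 CPM in the controls (3.63 ± 0.26; adjusted p = 3.68e-10). BTG2 footprints were 23.6, 70.2 and 118 CPM in the knockdowns, against 2.86, 4.65 and 7.09 CPM in the controls (4.2 ± 0.31).

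FDXR, ferredoxin reductase of the mitochondrion, had 145, 201 and 267 mRNA CPM in the knockdowns, against 27.5, 33 and 81.6 CPM in the controls, and rose by 2.70 in mRNA and 2.84 in footprints (log2). SPATA18, which acts in mitochondrial quality control, rose by 2.40 and 2.80. SESN1 and SESN2, the sestrins that restrain mTORC1, rose by 1.93 and 1.20 in mRNA and by 2.6 and 1.66 in footprints. ACTA2 had 28.3, 46.3 and 61.9 mRNA CPM in the knockdowns, against 4.33, 6.74 and 8.8 CPM in the controls, with log2 fold changes of 3.01 ± 0.18 in mRNA and 2.26 ± 0.17 in footprints. For each of these 5 genes all 12 knockdowns lay above all controls in mRNA. DNAI3, a dynein intermediate chain, and PLXNB3, a semaphorin receptor, rose by 3.54 and 2.83 in mRNA and by 4.04 and 2.97 in footprints from low levels (at most 1.25 and 2.94 mRNA CPM in the controls).

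Genes of DNA replication and the G1/S transition fell together. Of 48 measured in mRNA, 43 fell (89.6%, beside 11.2% of all genes), with a median of -1.32. For 31 of the 48 all 12 knockdowns lay below all 11 controls, as for 3.57% of all genes. In footprints 41 of 47 fell (beside 9.76% of all genes), with a median of -1.42. Among replication-dependent histone genes, 41 of 42 fell in mRNA (median -1.49) and 42 of 43 in footprints (median -1.56). Among genes of mitosis and G2/M, 34 of 41 fell in mRNA (median -1.12) and 39 of 41 in footprints (median -1.32). PCNA (-0.18), RPA1 (-0.45), RPA3 (-0.23), CCND1 (-0.06) and TYMS (-0.02) were the replication mRNAs that did not pass.

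E2F1, the transcription factor that drives S-phase genes, had 7.09, 11.3 and 26.7 mRNA CPM in the knockdowns, against 45.3, 55.4 and 123 CPM in the controls (-1.95 ± 0.26, adjusted p = 4.863e-06), without overlap. E2F2, a related activator, had 0.96, 2.39 and 7.42 mRNA CPM in the knockdowns, against 21, 25.4 and 53.8 CPM in the controls (-2.87 ± 0.31, adjusted p = 3.228e-07). MCM10, which helps to activate the replicative helicase, had 7.13, 11.3 and 27.4 mRNA CPM in the knockdowns, against 40.4, 66.2 and 71.8 CPM in the controls (-2.11 ± 0.23, adjusted p = 2.869e-07). CDC6, the loader of that helicase, had 17.6 to 51.2 mRNA CPM in the knockdowns (median 24.6), against at least 81 CPM in the controls (median 93.9) (-1.80 ± 0.17, adjusted p = 3.812e-08). ORC1 and CDT1, which act in the same licensing step, fell in mRNA (-1.94 and -1.91) and in footprints (-2.17 and -2.27). CCNE2, a cyclin of the G1/S transition, fell in mRNA (-1.87) and in footprints (-2.61).

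Of the mitotic genes, PLK1, the polo-like kinase, had 26.5, 61.5 and 128 mRNA CPM in the knockdowns, against 191, 226 and 474 CPM in the controls (-1.57 ± 0.26, adjusted p = 6.796e-05). CDC20, an activator of the anaphase-promoting complex, had 23.5, 43.5 and 73.1 mRNA CPM in the knockdowns, against 96.9, 122 and 234 CPM in the controls (-1.37 ± 0.22, adjusted p = 4.671e-05). AURKA, the aurora A kinase, had 30.3, 54.0 and 111 mRNA CPM in the knockdowns, against 135, 153 and 179 CPM in the controls. All 12 knockdowns lay below all 11 controls for these 3 genes. The histone gene H4C8 had 63.6, 95.1 and 154 mRNA CPM in the knockdowns, against 262, 308 and 528 CPM in the controls. Histone genes have near-identical copies, and how the authors assigned reads shared by copies is not given in the sources used here, so single histone values are uncertain.

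The promoters of 4 of these genes that hold a motif match are shown because the cell-cycle lists share short motifs there. Sequences are from RefSeq (GRCh38.p14), 250 bases before to 50 bases after the annotated start, with motif matches in capitals. An E2F match is TTTCCCGC, TTTGGCGC, TTTCGCGC or TTTGCCGC, and a CHR (cell cycle genes homology region) match is TTTGAA, each read on both strands; a forward and a reverse match may share bases.
E2F1 (chr20:33686336-33686635, minus strand): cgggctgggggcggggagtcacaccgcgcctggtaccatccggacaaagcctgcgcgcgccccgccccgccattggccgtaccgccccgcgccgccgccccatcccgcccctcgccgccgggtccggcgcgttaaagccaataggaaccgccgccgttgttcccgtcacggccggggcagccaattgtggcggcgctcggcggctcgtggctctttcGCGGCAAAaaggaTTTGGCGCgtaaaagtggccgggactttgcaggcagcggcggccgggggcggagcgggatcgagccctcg
CDC6 (chr17:40287629-40287928, plus strand): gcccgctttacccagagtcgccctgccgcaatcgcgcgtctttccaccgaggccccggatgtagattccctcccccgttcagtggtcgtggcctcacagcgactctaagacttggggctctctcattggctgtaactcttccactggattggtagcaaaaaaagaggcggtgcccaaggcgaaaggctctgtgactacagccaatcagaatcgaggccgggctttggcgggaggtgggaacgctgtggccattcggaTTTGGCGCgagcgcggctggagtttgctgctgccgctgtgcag
PLK1 (chr16:23678639-23678938, plus strand): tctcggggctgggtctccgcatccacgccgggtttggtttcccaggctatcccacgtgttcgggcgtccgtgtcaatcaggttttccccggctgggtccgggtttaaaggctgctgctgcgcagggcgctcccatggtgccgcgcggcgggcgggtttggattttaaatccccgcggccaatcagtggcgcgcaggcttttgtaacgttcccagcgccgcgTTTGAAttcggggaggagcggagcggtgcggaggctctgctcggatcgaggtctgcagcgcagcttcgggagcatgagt
CDC20 (chr1:43358731-43359030, plus strand): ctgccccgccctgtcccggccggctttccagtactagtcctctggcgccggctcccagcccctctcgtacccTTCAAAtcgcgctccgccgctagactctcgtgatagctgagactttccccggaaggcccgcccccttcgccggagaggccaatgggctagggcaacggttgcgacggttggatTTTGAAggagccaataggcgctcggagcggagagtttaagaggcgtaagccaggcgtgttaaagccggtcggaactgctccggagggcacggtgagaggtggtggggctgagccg

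An E2F match was found in 21 of 39 replication genes with a promoter sequence (53.8%), in 11.8% of genes with lower mRNA, in 5.5% of genes tested and in 3.33% of all 27303 promoters. It was also found in 5 of 29 p53 targets (17.2%) and in 3.9% of genes with higher mRNA. A CHR match was found in 24 of 35 mitotic genes (68.6%), in 15% of genes with lower mRNA, in 9.42% of genes tested and in 15.4% of all promoters. E2F1 and CDC6 hold 2 and 1 E2F matches in these windows, and CDC20 and PLK1 hold 2 and 1 CHR matches. MCM10 and ORC1, which also fell, hold 0 matches of either motif. A match describes the letters in the window and shows no binding.

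**Figure D2:**
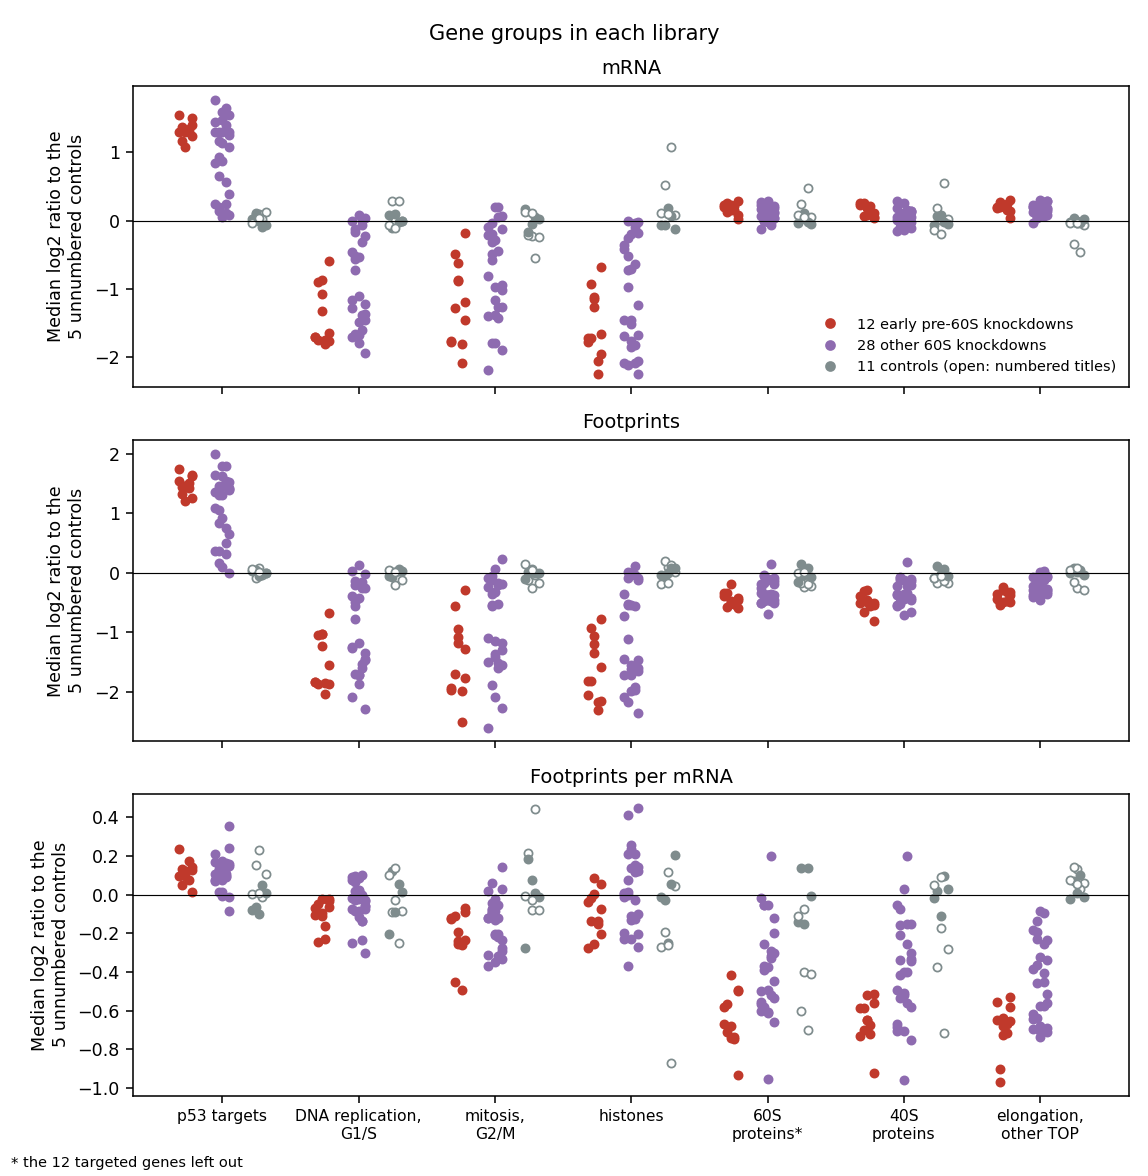
Median over the genes of each group of the log2 ratio to the mean of the 5 unnumbered controls, 1 point per library, for mRNA (top), footprints (middle) and footprints per mRNA (bottom). Within each group the 12 early pre-60S knockdowns stand left, the 28 other 60S knockdowns with unnumbered titles in the middle and the 11 controls right (open: numbered titles); p53 targets lay between 1.07 and 1.54 in early pre-60S mRNA and between -0.10 and 0.13 in control mRNA.

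Translation, measured as footprints per mRNA within each lysate, passed the threshold for far fewer genes: 42 of 11885 rose (0.353%) and 71 fell (0.597%). Of simulated log2 changes of 0.5, 12% were recovered in the ratio, against 58% in mRNA and 55% in footprints. Fewer calls therefore do not show that fewer genes changed. The test of the ratio is the interaction of assay and group in edgeR with the lysate as a block. Without the block 11 rose and 40 fell, without the title-set term 234 rose and 230 fell, and with the 5 unnumbered controls alone 74 rose and 136 fell. Leaving out numbered control NC20_2 gave 67 that rose and 122 that fell, leaving out control NC9 gave 20 and 47, and leaving out controls NC3 and NC7 gave 24 and 21 that rose. In all 12 knockdowns the ratio was above all controls for 0.118% of genes and below them for 0.168%. Of the 71 genes that fell, 38 encode ribosomal proteins, 10 are elongation factors or other TOP mRNAs and 23 are in neither list.

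Footprints fell on most ribosomal protein mRNAs, while the share of these mRNAs that passed in amount was near that of all genes. Of all genes tested, 9.76% fell in footprints and 0.597% fell in the ratio. Of 35 measured 60S protein genes that were not themselves targeted here, 4 rose in mRNA (11.4%, beside 9.26% of all genes) and 1 fell (median 0.20), 21 of 34 fell in footprints (median -0.45) and 20 of 34 fell in the ratio (median -0.68, beside 0.00 over all genes). Of the 40S protein genes, 4 of 33 rose in mRNA (12.1%, median 0.17), 19 of 30 fell in footprints (median -0.56) and 16 of 30 fell in the ratio (median -0.68). Elongation factors and other TOP mRNAs had 7 of 23 higher and 1 lower in mRNA (median 0.22), 7 of 17 lower in footprints (median -0.38) and 10 of 17 lower in the ratio (median -0.63). The mRNA difference was positive for 33 of 35 and 32 of 33 of these genes, and 13 and 11 were higher at an unadjusted p under 0.05, as were 2274 of all 14585 genes. The mRNA counts were the least stable: without NC20_2 14 of the 60S protein genes and 9 of the 40S protein genes rose, and without NC1, NC5, NC7 or NC9 the counts were 2 and 1 (2 of the 60S protein genes also without either of 2 knockdowns, that of RPL3 among them). Without NC9 10 of the 40S protein genes fell in the ratio.

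The median ratio of the non-targeted 60S protein genes was -0.93 (RPL3 knockdown), -0.68 and -0.42 (RPL35A knockdown) as lowest, median and highest of the early pre-60S libraries. Among controls it was -0.15 to 0.14 in the 5 unnumbered ones, but -0.70 in NC20_2 and -0.60 in NC20_1, so only 5 of 12 knockdowns lay below all 11 controls. For 40S protein genes the knockdowns ran from -0.92 (RPL3 knockdown) to -0.52 (RPL36 knockdown), against -0.72 (NC20_2) to 0.10 in the controls, and 3 of 12 lay below all controls. The part of NC20_1 and NC20_2 in this result was not tested beyond the fits above. Elongation factors and other TOP mRNAs did not share this overlap, since their median ratio was -0.97 to -0.53 in the knockdowns and -0.02 to 0.14 in the controls. Their median mRNA level, over 23 genes rather than the 17 of the ratio, was 0.0423 to 0.307 in the knockdowns and -0.457 to 0.0396 in the controls. These mRNA ranges did not overlap but nearly met.

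Among the 60S proteins not targeted here, the 4 largest footprint falls past the threshold were those of RPLP1, RPL10A, RPLP0 and RPL12, and 3 of these 4 belong to the stalk that recruits translation factors to the ribosome. RPLP1 had 58.8, 74.6 and 104 footprint CPM in the knockdowns, against 181, 217 and 248 CPM in the controls. RPLP1 mRNA was 982, 1150 and 1310 CPM in the knockdowns and 997, 1240 and 2100 CPM in the controls. The footprints did not overlap and the mRNA did: the log2 fold changes were -1.57 ± 0.10 in footprints (adjusted p = 9.814e-12), 0.02 ± 0.13 in mRNA (0.9276) and -1.61 ± 0.15 in the ratio (1.318e-07). RPLP0, the base of the stalk, had 99.4, 135 and 168 footprint CPM in the knockdowns, against 236, 247 and 295 CPM in the controls, and its ratio fell by 1.03 ± 0.14. RPL12, which joins the stalk to the body, fell in footprints (-0.90 ± 0.12) and in the ratio (-0.80 ± 0.15), and footprints of RPLP2, the partner of RPLP1, fell by 0.67. RPL10A, a protein of the L1 stalk at the opposite side, had 74.1, 83.8 and 105 footprint CPM in the knockdowns, against 180, 238 and 283 CPM in the controls (-1.37 ± 0.10, adjusted p = 6.912e-11), and its mRNA also fell, by 0.55 ± 0.10.

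Among 40S proteins, RPS12 fell in footprints (-1.06 ± 0.14) and in the ratio (-1.09 ± 0.16). RPS6, whose phosphorylation is a common readout of mTOR signalling, had 952, 1030 and 1190 footprint CPM in the knockdowns, against 1170, 1540 and 1820 CPM in the controls, while its mRNA was 1730, 1920 and 2050 CPM in the knockdowns, against 1520, 1640 and 1760 CPM in the controls. RPS6 thus rose in mRNA (0.21) and fell in footprints and in the ratio (-0.86). The ratio also fell for RPS4X (-1.01), RPS23 (-0.81) and the 60S protein RPL4 (-0.70). Besides RPS6 and RPS4X, 9 genes were higher in mRNA and lower in footprints: RPL11, RPL23A, RPL27, RPS19, RPS25, SLC25A6, TPT1, EIF4B and EIF3L. They are named after their values were seen, and both assays come from the same lysates. The mRNA calls of SLC25A6, TPT1 and EIF3L were lost under some alternatives. Without the title-set term SLC25A6 mRNA was 0.13 (adjusted p = 0.3545) and TPT1 mRNA 0.15 (0.06282), and the SLC25A6 call was also lost without the RPL32, RPL7A, NC1, NC5 or NC9 library, that of TPT1 without NC1 and that of EIF3L without NC9. No gene was called lower in mRNA and higher in footprints.

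EIF4B, an activator of the helicase that unwinds 5′ leaders, had 792, 994 and 1130 mRNA CPM in the knockdowns, against 440, 619 and 651 CPM in the controls (0.68 ± 0.10, adjusted p = 1.681e-05). EIF4B footprints were 25.8, 31 and 47.3 CPM in the knockdowns and 40.6, 48.3 and 64.8 CPM in the controls (-0.48 ± 0.12, adjusted p = 0.004854). Its log2 ratio was -5.26, -4.90 and -4.38 in the knockdowns, against -3.91, -3.66 and -3.00 in the controls, with no overlap in mRNA or in the ratio (-1.17 ± 0.13, adjusted p = 2.367e-06). EEF2, the factor that moves the ribosome along mRNA, had 1670, 2140 and 2590 mRNA CPM in the knockdowns and 1110, 1380 and 2780 CPM in the controls (0.74 ± 0.14, adjusted p = 0.0003839), and its ratio fell by 0.95 ± 0.12 (3.863e-05) while its footprints did not pass (-0.21, 0.2166; -0.43, 0.001672 without the title-set term). EEF1G and EEF1B2, subunits of the exchange factor for EEF1A, fell in the ratio (-1.07 ± 0.11 and -0.87 ± 0.10). So did SLC25A6, an ATP/ADP carrier (-1.01), TPT1 (-0.94), NAP1L1, a histone chaperone (-0.99), and EIF3L, an initiation factor subunit (-0.93). The NAP1L1 call was lost without the lysate block (adjusted p = 0.2937) and without NC3, NC7 or NC9 (0.0542 to 0.1202), and the TPT1 ratio was -0.48 (0.1147) without the title-set term.

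The first bases of 8 of these mRNAs are shown because most of the genes that lost footprints per mRNA hold a pyrimidine run there. Each line gives 10 bases before and 20 bases from the RefSeq start (GRCh38.p14), read on the strand of the gene. Capitals mark a run of at least 5 pyrimidines that opens with a C within 5 bases of the start.
RPLP1 (chr15:69452808-69452837, plus strand): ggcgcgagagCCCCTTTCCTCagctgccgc
RPLP0 (chr12:120201092-120201121, minus strand): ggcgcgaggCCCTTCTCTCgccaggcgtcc
RPS12 (chr6:132814559-132814588, plus strand): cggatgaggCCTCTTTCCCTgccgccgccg
EEF2 (chr19:3985444-3985473, minus strand): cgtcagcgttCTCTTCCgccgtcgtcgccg
EIF4B (chr12:53006446-53006475, plus strand): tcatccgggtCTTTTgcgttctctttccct
TPT1 (chr13:45341164-45341193, minus strand): ctgagtcggCCTTTTCCgcccgctcccccc
NAP1L1 (chr12:76084666-76084695, minus strand): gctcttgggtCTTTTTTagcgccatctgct
EEF1G (chr11:62573872-62573901, minus strand): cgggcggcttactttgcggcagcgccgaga

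Such a run was found in 44 of the 56 genes with a lower ratio that have a sequence (78.6%), in 4 of 36 with a higher ratio (11.1%), in 23% of genes tested for the ratio and in 21.1% of all promoters. It was present in 31 of 38 60S protein genes (81.6%), 21 of 26 40S protein genes (80.8%) and 11 of 17 of the elongation factor and TOP list (64.7%). Of the 23 genes with a lower ratio that are in neither list, 20 have a sequence and 14 of these hold the run (70%). EEF1G and RPS4X hold none in this window. FBXW7 and ZSCAN29, whose ratio rose as given below, hold runs of 11 and 5 bases. The start used in A549 cells was not measured, so these shares describe annotated starts only.

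**Figure D3:**
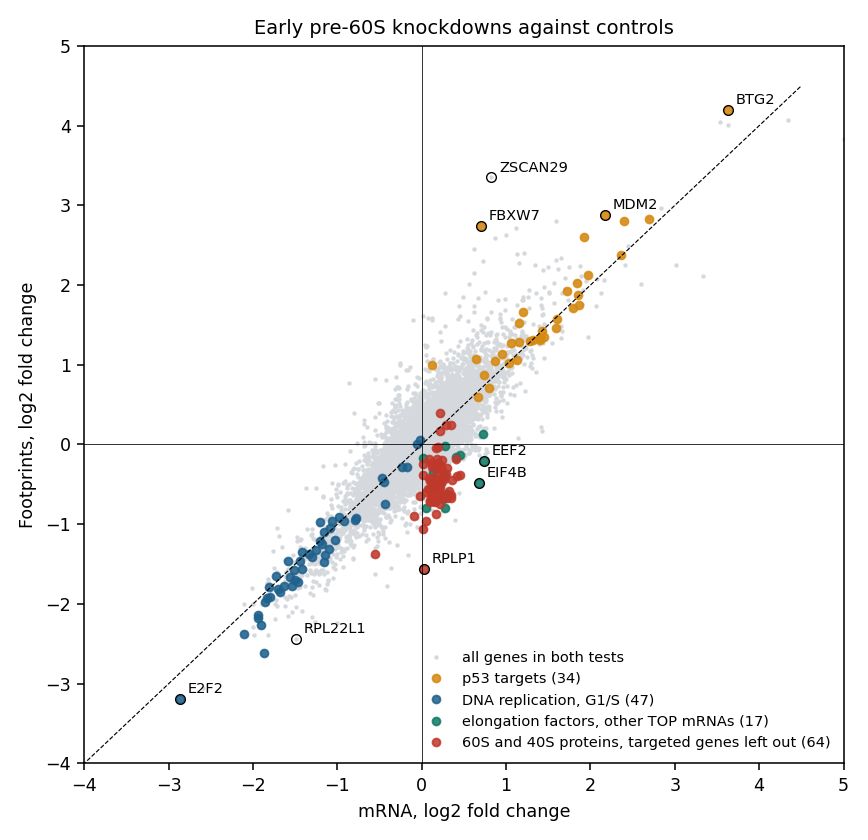
Log2 fold change of early pre-60S knockdowns against controls in footprints (vertical) and mRNA (horizontal), 1 point per gene tested in both, with equal change on the dashed line. p53 targets and replication genes lie near the line, whereas ribosomal protein, elongation factor and other TOP genes lie below it, with RPLP1 at 0.02 in mRNA and -1.57 in footprints.

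p53 targets and cell-cycle genes changed in the same direction in mRNA and footprints, with few calls in the ratio. Of simulated ratio changes of 0.5 on the log2 scale 12% were recovered, so few calls do not show equal changes. The ratio rose for 2 of 34 p53 targets (median 0.10), fell for 1 of 41 mitotic genes (median -0.24) and 1 of 40 histone genes (median -0.08), and passed for 0 of 47 replication genes in edgeR, 6 of which were lower at an unadjusted p under 0.05, and for 0 in limma. At an unadjusted p under 0.05 in edgeR, 7 p53 targets were higher, 7 mitotic genes lower, and 6 histone genes lower and 2 higher. Over all 11885 genes 617 were higher and 426 lower at that level. When single libraries were left out, 1 to 5 p53 targets rose and 0 to 2 histone genes fell in the ratio. MDM2 was 1 of the p53 targets that rose, by 0.69 ± 0.16 (adjusted p = 0.02976), a call that was lost without the lysate block (adjusted p = 0.827) and without the RPL7A, NC1, NC5 or NC9 library (0.05012 to 0.1126). The other was FBXW7, the substrate receptor of a ubiquitin ligase for MYC and cyclin E. FBXW7 had 10.0, 16.7 and 27.3 footprint CPM in the knockdowns, against 2.19, 2.64 and 3.5 CPM in the controls, and 17.8, 25.8 and 33.8 mRNA CPM in the knockdowns, against 10.3, 16.1 and 20.4 CPM in the controls. Its ratio lay above all controls in all 12 knockdowns and rose by 1.99 ± 0.17 (adjusted p = 7.15e-08).

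ZSCAN29, a zinc finger gene, had the largest rise in the ratio. Its footprints were 4.84, 10.6 and 14.6 CPM in the knockdowns, against 0, 1.33 and 2.26 CPM in the controls, and its ratio rose by 2.70 ± 0.40 (adjusted p = 0.0001945). Genes with symbols that start with ZNF or ZSCAN made up 8 of the 42 with a higher ratio and 355 of the 11885 tested. HEXIM1, an inhibitor of the elongation kinase P-TEFb, had 76.5, 127 and 143 footprint CPM in the knockdowns, against 31.9, 50 and 77 CPM in the controls, and its ratio rose by 0.83 ± 0.10 (adjusted p = 1.525e-05). RNF10, a ubiquitin ligase that marks 40S proteins of stalled ribosomes, rose by 0.90 ± 0.13 in the ratio (adjusted p = 0.0001902) and by 0.74 in footprints, while its mRNA did not pass (-0.16; -0.20, 0.03926 without the title-set term). ACTA2, raised in both assays, fell in the ratio by 0.77 ± 0.15 (adjusted p = 0.005654), a call lost without the lysate block (0.1617) or the title-set term (0.1314).

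**Figure D4:**
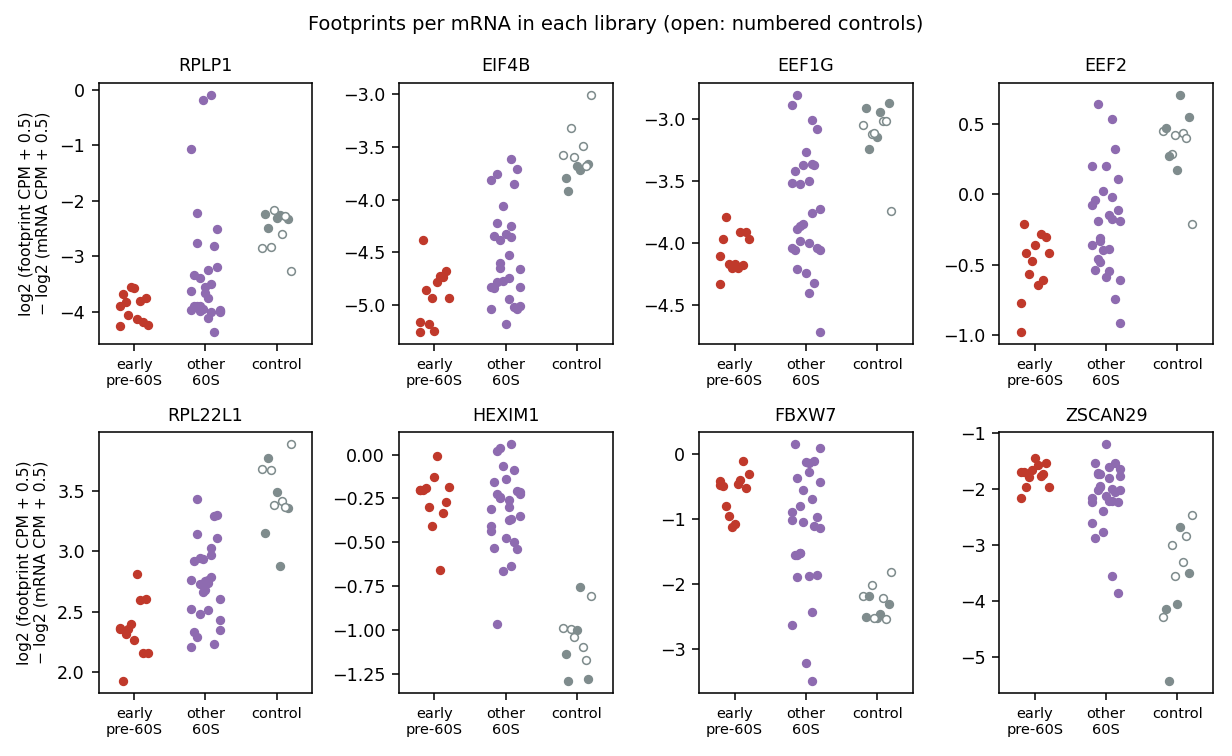
Log2 ratio of footprint CPM to mRNA CPM (0.5 CPM added to each) of 8 genes in each early pre-60S knockdown, other 60S knockdown and control library (open: numbered controls). RPLP1, EIF4B, EEF1G, EEF2 and RPL22L1 are lower and HEXIM1, FBXW7 and ZSCAN29 higher in all 12 early pre-60S libraries than in all 11 controls.

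Ribosomal protein paralogs moved in both directions. RPL22L1, the paralog of RPL22, had 58.4, 92.3 and 119 footprint CPM in the knockdowns, against 243, 456 and 626 CPM in the controls (-2.44 ± 0.17, adjusted p = 4.236e-11), the largest footprint fall of any ribosomal protein or paralog listed. Its mRNA (-1.5 ± 0.19) and its ratio (-0.96 ± 0.13) fell too, the ratio not without the lysate block (-0.94, adjusted p = 0.2387). RPS27L, a paralog of RPS27 induced by p53, had 324, 363 and 386 mRNA CPM in the knockdowns, against 64.9, 140 and 165 CPM in the controls, and rose by 1.29 ± 0.17. RPL26L1 had 23.8, 28.6 and 33.1 mRNA CPM in the knockdowns, against 12.4, 16.6 and 19.8 CPM in the controls (0.94 ± 0.10, adjusted p = 3.231e-07). The groups did not overlap for RPS27L and RPL26L1 in either assay, and RPL39L fell by 0.62 in mRNA.

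Single factors that assemble the ribosome moved in both directions. Of 39 factors of early 60S assembly, the step at which the 12 targets join, 1 rose (RRS1, 0.28) and 3 fell in mRNA (NOL9, -0.43, URB2, -0.38, and RBM28, -0.34), which is 2.56% and 7.69% beside 9.26% and 11.2% of all genes. In footprints 5 fell (12.8%, beside 9.76% of all genes), among them RRP1B (-0.54), CEBPZ (-0.53) and BRIX1 (-0.52), and 0 passed in the ratio in edgeR or limma, with 0 at an unadjusted p under 0.05 in edgeR. Leaving out single libraries gave 2 to 5 lower in each assay. Of 32 late 60S factors, 4 rose and 5 fell in mRNA (12.5% and 15.6%; 8 fell without NC20_2). SPATA5, an ATPase that recycles factors from late pre-60S particles, fell in mRNA (-0.81 ± 0.14) and in footprints (-1.13 ± 0.16), as did its partner SPATA5L1 (-0.53 and -0.93). NOP53, a binder of the exosome-associated helicase, rose by 0.68 ± 0.12 in mRNA, and its ratio fell by 0.83 ± 0.16 (adjusted p = 0.004654). NOLC1, a nucleolar chaperone of RNA polymerase I and box C/D particles, had 100 to 181 mRNA CPM (median 135) in the knockdowns, against 57.0, 68.6 and 80.0 CPM in the controls (1.05 ± 0.12), with 1.38 ± 0.14 in footprints. NOP56, a core protein of box C/D particles, had 95.0, 136 and 160 mRNA CPM in the knockdowns, against 198, 211 and 250 CPM in the controls (-0.65 ± 0.10), and its ratio rose by 0.42 ± 0.09 (adjusted p = 0.008391), a call lost without the lysate block (0.4103) or NC3 (0.05251).

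Metabolic and stress lists showed smaller shifts. In all genes 9.26% were higher and 11.2% lower in mRNA, and 9.55% and 9.76% in footprints. Of 31 genes of the ATF4 stress response 3 rose (9.68%) and 9 fell (29%) in mRNA (median -0.18), and the counts were the same in footprints. ASNS, asparagine synthetase, fell in mRNA (-0.63) and in footprints (-0.80). The same held for MTHFD2, a mitochondrial folate enzyme (-0.69 and -0.82), and PHGDH, which starts serine synthesis (-0.64 and -0.87). Of 25 genes of sterol synthesis, 1 rose (4%) and 5 fell (20%) in mRNA (median -0.25), and 2 rose (8%) and 9 fell (36%) in footprints, with 5 lower without NC3 or NC9 and up to 11 when other single libraries were left out. Of these enzymes EBP fell in mRNA (-0.81) and in footprints (-0.84), whereas TM7SF2 rose in both (1.18 and 1.30). Of 18 heat shock chaperones, 1 rose and 8 fell (44.4%) in footprints (4 without NC3, NC7 or NC9 and up to 9 when other single libraries were left out), with HSPA8 at -0.70, STIP1 at -0.54 and HSPA4L, the one that rose, at 1.08. Other lists had few calls. Of 20 NRF2 targets 1 rose and 1 fell in each assay. Of 13 genes of polyamine metabolism 2 rose and 1 fell in mRNA, and of 11 measured in footprints 3 rose and 2 fell. Of 17 interferon response genes 2 fell in mRNA, and of 18 in footprints 2 rose and 1 fell.

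Of 31 genes of extracellular matrix and adhesion 8 rose in mRNA (25.8%, beside 9.26% of all genes; median 0.31) and 7 in footprints (22.6%, beside 9.55%). Most of the list did not pass, and leaving out single libraries gave 6 to 9 higher in mRNA and 5 to 8 in footprints. The syndecans SDC4 and SDC1 rose by 1.07 and 0.76 and CCN1, a matricellular protein, by 0.88 in mRNA and 1.21 in footprints. The summed fibroblast markers given above were higher as well, with ACTA2 alone among them passing the test. Their part in this result was not tested. In the list of ribosome rescue and quality control, ASCC3, the helicase that splits collided ribosomes, had 118, 137 and 187 mRNA CPM in the knockdowns, against 12.5, 63.3 and 83.0 CPM in the controls (1.05 ± 0.26). GLA, the lysosomal alpha-galactosidase, had 55, 74.8 and 85 mRNA CPM in the knockdowns, against 87.3, 119 and 132 CPM in the controls (-0.79 ± 0.10). MYC did not pass, at -0.27 ± 0.12 in mRNA (adjusted p = 0.1195) and -0.36 ± 0.13 in footprints (0.05603), with 7 and 10 of 12 knockdowns below all controls. Without the title-set term MYC passed in mRNA (-0.56, adjusted p = 0.0004061) and in footprints (-0.47, 0.001303). Its footprints also passed with DESeq2 (0.04695), with the 5 unnumbered controls alone (0.0434) and without the RPL35A, RPL7 or NC11_1 library, and both assays passed when the run of columns was a term in the fit, an alternative chosen after seeing the data (0.009356 in mRNA and 0.02164 in footprints).

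The 12 knockdowns differed in how far the cell-cycle genes fell, and much less in p53 targets. The median replication mRNA ratio to the unnumbered controls lay between -1.80 and -1.64 in 7 knockdowns, among them those of RPL7, RPL3, RPL6, RPL7A, RPL32 and RPL36. It was -1.32 in the RPL13, -1.07 in the RPL13A, -0.90 in the RPL18, -0.88 in the RPL35A and -0.60 in the RPL14 knockdown, against -0.11 to 0.28 in the controls. The RPL7 and RPL14 knockdowns were also the extremes for mitotic mRNAs (-2.09 and -0.19) and for histone mRNAs (-2.24 and -0.68). The median of p53 targets spanned 1.07 (RPL35A) to 1.54 (RPL32), against -0.10 to 0.13 in the controls. The RPL14 knockdown, with the smallest cell-cycle changes, also kept the most target mRNA (15.7%); whether these are linked was not tested. Each value is from 1 library.

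The question whether these 12 knockdowns differ from other 60S knockdowns was put to the 28 other 60S libraries with unnumbered titles. In mRNA 1 of 15255 genes passed (0.00656%) and in footprints 1 of 12587 (0.00794%), both lower and both SLC7A1, the main carrier of arginine and lysine into cells. With no filter on low counts the footprint test called 208 genes higher and 61 lower. In the ratio 0 of 12308 genes passed in edgeR, with 323 higher and 333 lower at an unadjusted p under 0.05, and 0 passed in limma. SLC7A1 mRNA was 68.1, 107 and 150 CPM in the early pre-60S knockdowns, 92.4, 161 and 206 CPM in the other 60S knockdowns and 160, 188 and 223 CPM in the controls. SLC7A1 footprints were 26.3, 41 and 57.2 CPM in the early pre-60S knockdowns, 40.6, 59.8 and 79.5 CPM in the other 60S knockdowns and 56.8, 64.9 and 76.0 CPM in the controls. The early and other 60S ranges overlapped, and the log2 fold change was -0.53 ± 0.10 in mRNA (edgeR adjusted p = 0.00904) and -0.53 ± 0.10 in footprints (0.0197). The call was lost without the RPL13A, RPL6 or RPL7 library in mRNA, and without the RPL13A, RPL14, RPL36, RPL6, RPL7 or RPL7A library in footprints. Against control SLC7A1 fell in mRNA (-0.73 ± 0.15, adjusted p = 0.000827) and in footprints (-0.76 ± 0.15, adjusted p = 0.0005721).

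**Figure D5:**
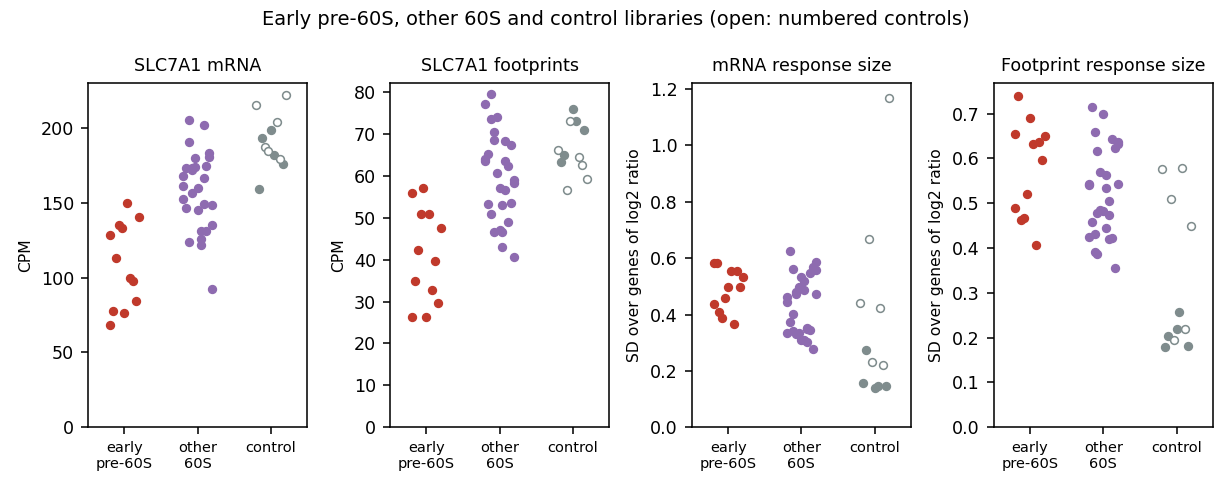
SLC7A1 mRNA and footprint levels (CPM, left) and the size of the response per library (SD, over genes, of log2 ratios to the mean of the 5 unnumbered controls, right), 1 point per library, for 12 early pre-60S knockdowns, 28 other 60S knockdowns and 11 controls (open: numbered titles). SLC7A1 reaches its lowest levels in early pre-60S libraries, while the response sizes of both knockdown groups overlap over most of their range.

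No other listed gene passed between early and other 60S knockdowns, although the list medians leaned one way. The median log2 difference was -0.62 for replication, -0.58 for histone and -0.48 for mitotic mRNAs and 0.31 for p53 targets, and 40 of 48, 38 of 43, 29 of 41 and 13 of 35 genes reached an unadjusted p under 0.05 in that direction, beside 1136 lower and 671 higher of all 15255 genes. In the ratio the medians were -0.25 for non-targeted 60S proteins, -0.27 for 40S proteins and -0.29 for elongation factors and other TOP mRNAs. The median replication mRNA ratio of the early pre-60S libraries spanned -1.80 to -0.60 and that of the other 60S libraries -1.94 to 0.08, so the early libraries lay inside the range of the others. The 28 other 60S libraries include the RPL5 and RPL11 knockdowns. Their p53 target median ran from 0.0489 (RPL22 knockdown) to 1.77 in mRNA and from 0.00448 (RPL11 knockdown) to 2 in footprints. The part of weakly responding libraries in the lean was not tested. The response size in mRNA averaged 0.489 ± 0.077 in the early pre-60S knockdowns and 0.435 ± 0.104 in the other 60S knockdowns (SD, n = 12 and 28). The difference of 0.054 did not pass a two-sided permutation test (p = 0.115). In footprints it was 0.579 ± 0.105 in the early pre-60S knockdowns and 0.524 ± 0.1 in the other 60S knockdowns (difference 0.055, p = 0.126).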

How the data were processed

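The deposited tables hold raw read counts per Ensembl gene that the authors neither normalized nor pooled. Per the file headers, RNA-seq reads were counted in exons and Ribo-seq reads in coding sequence. The submitters' processing notes name STAR 2.6.1, cutadapt 1.8.1, bcl2fastq 2.20.0.422 and the build GRCh38. What counted the reads, with which strand setting and annotation release, and how shared reads were handled is not given in the sources used here. Columns were matched to samples by name, and controls NC21_1 and NC21_2 carry their column names. The members and gene lists were chosen with earlier results of these data known.

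Analyses ran in R 4.3.3. Genes reaching 1 CPM in 11 or more libraries were tested with edgeR 4.0.16 (TMM, glmQLFit, glmQLFTest, title set as covariate), Benjamini-Hochberg adjusted over all genes tested at 0.05. The ratio was the interaction of assay and group over both assays, with the lysate as a block, because the labels' protocols divide each lysate between the assays. As a check, deviations from the group means correlated with a median r of 0.46 within lysates and -0.05 between lysates (11880 genes), and 19 of 23 lysates were over 0.1. SE come from the fold change and the test statistic. Ratios per library add 0.5 CPM. The comparison with other 60S knockdowns used the 64 unnumbered libraries. DESeq2 1.42.0 and limma 3.58.1 served as alternatives. Among 55 pairs of controls the lowest chi-square per degree of freedom was 3.26 (RNA-seq) and 5.45 (Ribo-seq), so no library was taken for a duplicate. On simulated data with 200 changed genes, a log2 change of 1 was recovered for 99% in mRNA (14574 genes), 99% in footprints (12087 genes) and 88% in the ratio (11885 genes), and a change of 0.5 for 58%, 55% and 12%. The simulation gave every gene the same spread, with no difference between targets or title sets, no deviating control and no lysate effect. These shares are therefore not the power of the tests on the real libraries.

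Named genes are, per comparison, the 10 largest changes in each direction among genes past the threshold with a mean of at least 5 CPM and the same direction in at least 11 of 12 knockdowns, leaving out targeted genes, the 3 members of each list with the smallest p, the 12 targets, and CDKN1A, MDM2, BTG2 and MYC. Other genes were named after their values were seen. Several genes taken by the rule, and values of 1 target, are not reported here.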

Additional observations from a re-analysis of the deposited data

Results flagged for a closer look

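SLC7A1 differed between the early pre-60S and the other 60S knockdowns in the test of that difference itself, in mRNA (log2 difference -0.53, edgeR adjusted p = 0.00904) and in footprints (-0.53, adjusted p = 0.0197). It was the only gene that passed in either assay with the filter on low counts, without which 208 genes were higher and 61 lower in footprints. In 42 sets of control values (the gene groups plotted, by assay and title set), 0 held a median past the 95% limit of Dixon's test, where chance would give about 1 in 20. This covers medians of gene groups within 5 or 6 controls only. Over all genes NC20_2 stood farthest apart in RNA-seq, and other numbered controls also lay far from the unnumbered ones, as given above.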

How the results depend on the processing

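Of 5176 values for 168 gene results under alternatives, 5094 kept direction and side of the threshold, 45 lost and 33 gained significance, and 4 changed sign. Most of these alternatives left out a single library, and many of the genes were named for large changes or small p. High agreement was therefore likely from the start and is no measure of stability. The sign changes were all near 0: RPLP1 mRNA was -0.13 without the title-set term and -0.013 to 0.077 when single libraries were left out, and RPS12 mRNA -0.0098 to 0.043 when single libraries were left out. The counts of genes against control depended most on the title-set term. Without it 2633 mRNAs were higher and 3238 lower, footprints were higher for 2047 and lower for 2087, and the ratio was higher for 234 and lower for 230. With the 5 unnumbered controls alone the counts were 2190 for higher mRNA, 74 for a higher and 136 for a lower ratio. In a fit of all libraries 2177 mRNAs were higher and 2806 lower. A term for the run of columns, an alternative chosen after seeing the data, gave 2274 for higher mRNA, 1800 for higher footprints, 88 for a higher and 146 for a lower ratio. The second run of columns alone, also added, gave 119 for a lower ratio. Without the lysate block that pairs both assays, the ratio was higher for 11 genes and lower for 40, which left 15 non-targeted 60S and 12 40S protein genes lower. The cause of these differences was not tested.

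Leaving out single libraries moved the ratio counts to 20 (NC9) to 67 (NC20_2) higher and 47 (NC7, NC9) to 122 (NC20_2) lower, with 24 higher without NC3 and 21 without NC7. Counts of mRNA and footprints stayed within 1.5 times. Between early and other 60S knockdowns the calls in mRNA and in footprints were 0 to 1 when single libraries were left out. With no filter on low counts 208 genes were higher and 61 lower in footprints, and with DESeq2 2 were lower. Of simulated log2 changes of 0.5 against control, 12% were recovered in the ratio, against 58% in mRNA and 55% in footprints; how far depth sets this was not tested.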

Other observations

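Some genes stood apart in 1 of the 12 early pre-60S knockdowns. They were picked from their values, each rests on 1 library, and none was tested. In each library, genes were counted that had the lowest or highest level of the 12 in both mRNA and footprints. Between 20 of them (RPL18 knockdown) and 100 (RPL7A knockdown) lay at least 1 on the log2 scale from the median of the other 11 in both assays. In the RPL7A knockdown RPL8, another 60S protein, had 156 mRNA CPM, against 949 to 1362 CPM in the other 11, and FOXM1, a transcription factor of mitotic genes, had 12.1 CPM, against 62.2 to 166 CPM. In the RPL36 knockdown BSG, a cell surface glycoprotein, had 96.2 CPM, against 434 to 506 CPM. In the RPL35A knockdown CLPTM1L had 31 CPM, against 66.4 to 208 CPM. The RPL3 knockdown had 94.8 CPM of EEA1, an endosomal tether, against 13.4 to 40.6 CPM in the other 11, and the RPL6 knockdown had 38.5 CPM of VGF, a secreted neuropeptide precursor, against 6.16 to 16.8 CPM. In the RPL14 knockdown CDK1, the mitotic kinase, had 64.7 CPM, against 14.2 to 43.5 CPM.

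Levels of the mRNAs encoded in mitochondrial DNA differed between libraries of the same group. Their median log2 ratio to the 5 unnumbered controls was 1.06 in the RPL3 and 1.02 in the RPL13 knockdown, the only 2 of the 12 in the third alphabetical run of columns, and 1.04 and 1.17 in controls NC21_1 and NC21_2 of the same run. The highest value, 1.4, was in the RPL23 knockdown, an other 60S library of the second run. Against all 11 controls 0 of the 13 genes passed in mRNA in edgeR or DESeq2, with 0 at an unadjusted p under 0.05 in edgeR, whereas 7 were higher against the 5 unnumbered controls alone.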
